A study of Homo sapiens with 4 samples.

Results

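DDC, DBH, ADRA2A and HRH3 are 4 genes of noradrenergic cells, 2 encoding enzymes of catecholamine synthesis and 2 encoding receptors that can restrain transmitter release. They were followed in BE(2)C, a human neuroblastoma cell line kept in serum-containing medium, which had been transfected either with an siRNA that targets no gene (control siRNA) or with SSRP1 siRNA. The SSRP1 protein belongs to FACT, a histone chaperone that opens and rebuilds nucleosomes along transcribed and replicating DNA. The 4 genes were chosen by name out of 14812 named genes on the array, with their measured differences between the groups already known, so their own differences are given as a description and without a test. Each group held 2 samples with 1 whole-transcript array each, the lipid carrier and the 72 hours from transfection to RNA isolation were shared by both groups, and 100 ng of RNA was labelled per array. The labels name 1 catalogue item as the SSRP1 siRNA, so effects of losing SSRP1 and effects of that reagent on other transcripts cannot be told apart. Whether the replicates were grown as separate cultures is not stated in the labels, and p-values therefore cover the spread between these arrays alone, which can be a technical one.

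Sympathetic neurons and chromaffin cells make noradrenaline from tyrosine. Tyrosine hydroxylase makes L-DOPA, DDC (aromatic L-amino acid decarboxylase) turns it into dopamine with pyridoxal phosphate as cofactor, and DBH (dopamine beta-hydroxylase), a copper enzyme inside the secretory vesicle, turns dopamine into noradrenaline. The released amine acts back on the cell through ADRA2A, an adrenergic receptor coupled to Gi/o proteins that lowers further release, and HRH3, a histamine receptor with the same coupling, does so as a heteroreceptor on noradrenergic terminals. Neuroblastoma arises in the sympathetic lineage, and its adrenergic form keeps much of this program.

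The start regions of 3 of the 4 genes are printed first, because the array reads the whole transcript and does not tell from which start it came, and because the genes differed in opposite directions. They are the 250 bases before each start in RefSeq on build GRCh38.p14, written along the gene's strand, with every match to a searched motif in capitals. DDC has 2 such starts 4334 bases apart, and the gene is known to use different first exons in neurons and in other tissues. HRH3 is named only.
ADRA2A, chr10:111076779-111077028, plus strand: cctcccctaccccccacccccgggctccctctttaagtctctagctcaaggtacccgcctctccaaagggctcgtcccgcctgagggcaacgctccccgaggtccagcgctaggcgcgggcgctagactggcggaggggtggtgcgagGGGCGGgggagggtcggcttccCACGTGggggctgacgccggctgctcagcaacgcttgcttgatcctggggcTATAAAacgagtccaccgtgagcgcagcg
DBH, chr9:133636113-133636362, plus strand: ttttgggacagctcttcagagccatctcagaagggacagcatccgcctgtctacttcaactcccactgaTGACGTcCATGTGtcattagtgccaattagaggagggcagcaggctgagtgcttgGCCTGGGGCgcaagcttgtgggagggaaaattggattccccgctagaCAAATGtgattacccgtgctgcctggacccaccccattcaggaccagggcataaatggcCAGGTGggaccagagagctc
DDC, start farther upstream, chr7:50565406-50565655, minus strand: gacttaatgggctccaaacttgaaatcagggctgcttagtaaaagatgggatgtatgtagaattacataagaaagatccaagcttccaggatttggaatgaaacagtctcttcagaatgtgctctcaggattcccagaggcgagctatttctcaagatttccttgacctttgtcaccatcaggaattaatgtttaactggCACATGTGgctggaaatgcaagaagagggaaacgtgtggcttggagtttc
DDC, start farther downstream, chr7:50561072-50561321, minus strand: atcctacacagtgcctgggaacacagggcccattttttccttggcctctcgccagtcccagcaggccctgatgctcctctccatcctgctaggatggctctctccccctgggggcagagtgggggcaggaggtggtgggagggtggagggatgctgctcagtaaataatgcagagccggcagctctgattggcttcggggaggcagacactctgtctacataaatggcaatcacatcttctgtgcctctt

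In all, 8 short motifs were searched on both strands. In the ADRA2A region the letters TATAAA of a core promoter element began 29 bases before the start, as they do somewhere in 10.7% of the 35116 start regions of the RefSeq table. That region also held GGGCGG, the letters bound by Sp factors, at 102 bases (42.6% of all regions) and 1 match to CANNTG, the E-box bound by bHLH factors such as HAND2, at 80 bases (61.8% of all regions). In the DBH region the short form of the cyclic AMP response element, spelled TGACGT, began at 181 bases, and 7.1% of all regions hold it. An AP-2 motif, spelled GCCNNNGGC, began at 126 bases in DBH (19.8% of all regions), and there were 3 E-box matches at 174, 79 and 20 bases. Of the DDC regions, the one farther upstream held 2 overlapping E-box matches at 50 and 48 bases, and the other held no match. None of the printed regions held the full cyclic AMP response element, spelled TGACGTCA, which contains the short form and occurs in 1.65% of all regions. Nor did they hold the homeodomain letters TAATTA (4.35% of all regions) or, for factors of the GATA family, the letters AGATAA (9.17% of all regions). The share of G and C was 68.8% for ADRA2A, 55.6% for DBH and 42.4% and 58% for DDC, against a median of 58% over all regions. These matches describe the letters in the window and are no evidence of binding.

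The siRNA target and the identity of the cells were examined in all 4 arrays. SSRP1 had log2 values of 9.05 and 9.23 with control siRNA and of 7.42 and 6.97 with SSRP1 siRNA, and fell by 1.95 ± 0.17 (SE) on the log2 scale (limma adjusted p = 0.0479, and 0.0569 with the replicate block, 0.0512 with robust variances and 0.144 over all probe sets at the same change), while its partner SUPT16H differed by -0.07 ± 0.10 (SE, limma adjusted p = 0.821). Of 9 adrenergic neuroblastoma markers 7 were measured, and all 7 lay above the median log2 level of all genes, 4.64. Their summed level, in linear units, was 4265 to 4401 with control siRNA and 3974 to 4084 with SSRP1 siRNA. The summed level of 5 measured Schwann and glial markers of 8 was 108.9 to 111.0 against 130.4 to 141.3, and 2 of the 5 lay above the median level of all genes. GFRA3 was the 1 of these 5 with an adjusted p under 0.05. It rose from 2.69 to 4.25 (limma adjusted p = 0.0267), both below that median. The summed level of 3 measured fibroblast markers of 7 was 209.5 to 296.2 against 436.6 to 494.0, where LUM had a change of 1.20 (limma adjusted p = 0.184). For 4 measured blood markers of 6 the sums were 96.2 to 114.9 against 91.5 to 94.3, and for 2 measured endothelial markers of 5 they were 16.3 to 16.5 against 15.9 to 17.1. The lowest value of any probe set was 0.502, so the lack of zeros among the markers does not show that they were detected. The part of these shifts in the results below was not tested. In bulk RNA, fewer cells of a type and less RNA per cell cannot be told apart.

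The enzymes were taken first, in the order of the pathway. DDC had log2 values of 9.24 and 9.24 with control siRNA and of 9.64 and 9.70 with SSRP1 siRNA. Both SSRP1 siRNA arrays were above both control arrays, and the control arrays were nearly equal. The difference was 0.43 ± 0.10 (SE) on the log2 scale, or 1.35-fold, and ran from 1.32-fold to 1.37-fold over the 4 pairs of a control and an SSRP1 siRNA array. Of the 14812 genes, 470 had an upward difference at least as large.

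DBH went the other way. Its log2 values were 9.67 and 9.50 with control siRNA and 8.83 and 8.80 with SSRP1 siRNA, so both SSRP1 siRNA arrays were lower and the groups did not overlap. The difference was -0.77 ± 0.11 (SE) on the log2 scale, which is 58.5% of the control level, with 54.6 to 62.7% over the 4 pairs of arrays. A difference at least this far below 0 was measured for 44 genes. Within a group the DBH values lay 0.17 apart in the controls and 0.02 apart with SSRP1 siRNA, against medians of 0.12 and 0.13 over all genes.

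**Figure D1:**
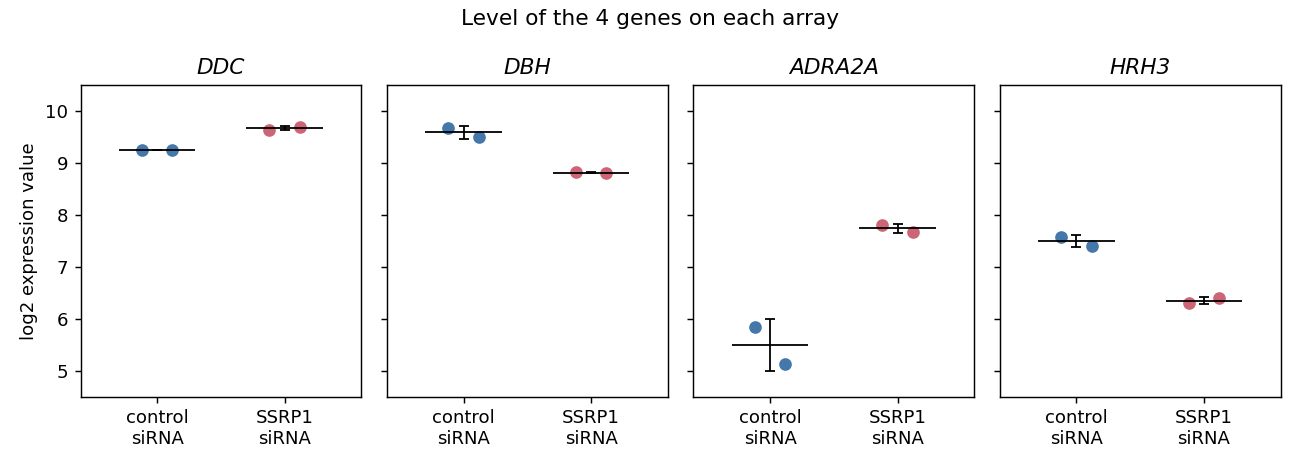
Log2 expression value of DDC, DBH, ADRA2A and HRH3 on each array, with points for the 2 control siRNA arrays (blue) and the 2 SSRP1 siRNA arrays (red), lines for group means and bars for the SD. DDC and ADRA2A lie higher and DBH and HRH3 lower on both SSRP1 siRNA arrays, and the control arrays of ADRA2A stand farthest apart.

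Of the receptors, ADRA2A was higher with SSRP1 siRNA. Its log2 values were 5.85 and 5.13 with control siRNA and 7.80 and 7.67 with SSRP1 siRNA. Every SSRP1 siRNA array lay above every control array, and control replicate 2 was the lowest. The difference was 2.25 ± 0.23 (SE) on the log2 scale, or 4.74-fold, and 2 of the 14812 genes, ADRA2A included, had an upward difference at least as large. Over the pairs of arrays it ran from 3.54-fold to 6.35-fold. The control arrays differed by 0.71, and only 0.729% of all genes had a gap between the controls at least as large. Without control replicate 1 the difference was 2.60 (6.07-fold), and without control replicate 2 it was 1.89 (3.71-fold).

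HRH3 was lower with SSRP1 siRNA. It had log2 values of 7.57 and 7.41 with control siRNA and of 6.30 and 6.40 with SSRP1 siRNA, without overlap. The difference was -1.14 ± 0.11 (SE) on the log2 scale, which is 45.4% of the control level, with 41.4 to 49.7% over the 4 pairs of arrays. Only 5 genes, HRH3 included, had a difference at least this far below 0. Its values lay 0.16 apart in the controls and 0.10 apart with SSRP1 siRNA, against medians of 0.12 and 0.13 over all genes.

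Thus 1 enzyme and 1 receptor were higher and 1 enzyme and 1 receptor lower, and the groups did not overlap for any of the 4. Groups that did not overlap were found for 44.3% of all genes, 21.8% higher and 22.5% lower, and since the 4 genes were chosen on this contrast nothing is read from their count. Each gene had 1 probe set, and each had a mean over the 4 arrays above the median of all genes. That median is no detection limit, and the control values of ADRA2A, 5.85 and 5.13, lay nearest to it. Levels of different genes are not ranked, because the probe sets bind their targets with different strength.

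**Figure D2:**
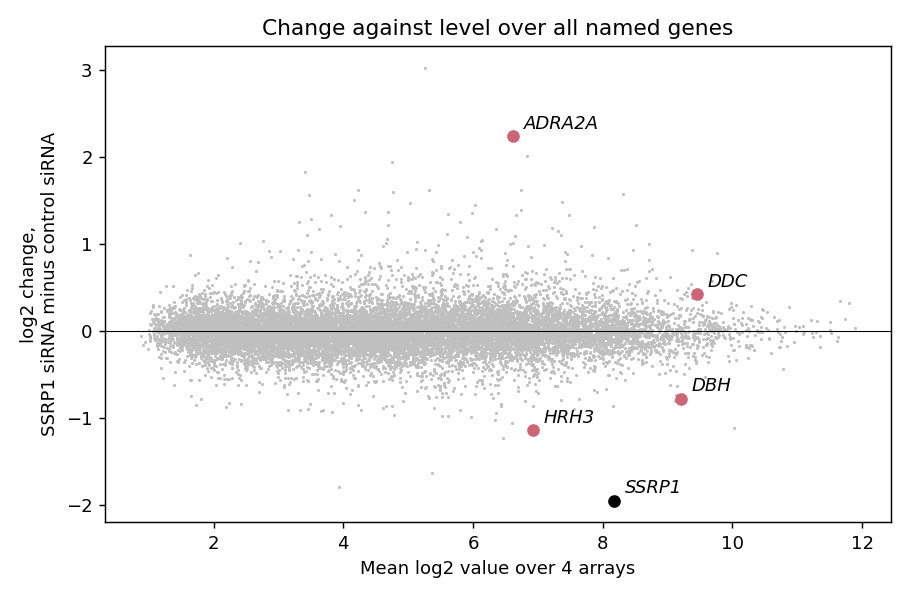
Log2 change (SSRP1 siRNA minus control siRNA) of each of the 14812 named genes against its mean log2 value over the 4 arrays, with DDC, DBH, ADRA2A and HRH3 in red and SSRP1 in black. ADRA2A at 2.25 lies near the top of all genes and HRH3 at -1.14 near the bottom, while DDC and DBH are among well-expressed genes with smaller differences.

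The other genes of the pathway were taken from lists by role, with 144 genes in all besides the 4. Of these, 78 had a named probe set, and 1, which was higher, had an adjusted p under 0.05 in limma over the whole table. That threshold was passed by 14 genes of the table (0.0945%), with 0.081% higher and 0.0135% lower. With 3 arrays, whichever one was dropped, 0 genes passed it, SSRP1, GFRA3 and the related gene included (smallest limma adjusted p from 0.241 to 0.599, with 1200 to 1672 genes at an unadjusted p under 0.05). At an unadjusted p under 0.05 there were 17 of the 78 (21.8%), 10 higher and 7 lower, against 12.6% of all genes, 6.56% higher and 6.03% lower. Among the 44 related genes at or above the median level it was 16 (36.4%), against 15.8% of all genes at that level. The lists were chosen with earlier results of these data known. Nothing about the pathway as a whole is therefore read from these shares or from the counts by list below. The median change of the 78 was 0.01 on the log2 scale, and that of all genes was -0.01.

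The first and last steps of catecholamine synthesis were measured beside DDC and DBH. TH, the rate-limiting enzyme, had log2 values of 6.79 and 6.59 with control siRNA and of 6.33 and 6.36 with SSRP1 siRNA. The change was -0.34 ± 0.11 (SE), the same sign as DBH, and it did not pass the test (limma adjusted p = 0.338). PNMT, which turns noradrenaline into adrenaline, had values of 3.65 and 3.65 against 3.71 and 3.88, a change of 0.15 ± 0.11 (SE, limma adjusted p = 0.638) at a level below the median of all genes. The serotonin enzymes TPH1 and TPH2 and the histamine enzyme HDC also lay below that median, between 1.54 and 2.41 on all arrays. Their changes were 0.04, 0.27 and 0.13, with limma adjusted p between 0.410 and 0.940. In all, 0 of 5 amine synthesis enzymes passed in limma, and TH was the 1 with an unadjusted p under 0.05.

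Of the genes that supply the enzymes with cofactors, 6 of 10 were measured, 0 passed the adjusted limma threshold and 1 was at an unadjusted p under 0.05. That gene was CYB561, the vesicle membrane cytochrome that hands electrons to the DBH reaction, at 9.04 ± 0.05 (SD, n = 2) with control siRNA and 9.47 ± 0.04 (SD, n = 2) with SSRP1 siRNA, without overlap. Its change of 0.43 ± 0.10 (SE, limma adjusted p = 0.216) was upward, opposite in sign to that of DBH. GCH1, the first enzyme of tetrahydrobiopterin synthesis, had a change of 0.22, and QDPR and PTS, which regenerate and make the same cofactor, had changes of 0.19 and 0.03. GCHFR, the feedback regulator of GCH1, had a change of -0.13 at a level below the median.

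Storage and release genes lay on both sides of 0. Of 14 measured genes of 17, 0 passed the adjusted limma threshold and 6 were at an unadjusted p under 0.05, 3 higher and 3 lower. Those 6 were 42.9% of the list, against 12.6% of all genes and 15.8% of genes at or above the median level, where 12 of the 14 lay. The synaptotagmin genes differed in sign: SYT7 had a change of -0.48 and SYT1 of -0.36, against 0.35 for SYT4. The granin genes CHGA and SCG2 were the other 2 higher genes at an unadjusted p under 0.05, with changes of 0.34 and 0.29; they lie outside the rule for named genes and were chosen after their values were seen. VGF, a granule peptide precursor, had a change of -0.48, with control values of 8.94 and 8.45, farther apart than the group means, and it ran from -0.72 to -0.23 when 1 array was left out. The granule chaperone gene SCG5 had a change of 0.31 (0.12 to 0.51 when 1 array was left out) and CADPS, a priming factor for dense-core vesicles, of -0.03. Both lay below the median level. In limma the adjusted p of the genes named here ran from 0.225 to 0.933.

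Of the uptake and breakdown genes 4 of 12 had a named probe set, 0 passed the adjusted limma threshold and 0 were at an unadjusted p under 0.05. MAOA, the mitochondrial oxidase that prefers noradrenaline and serotonin, had values of 3.29 and 3.46 against 3.29 and 3.56, which overlapped, and a change of 0.05 ± 0.14 (SE). HNMT, which methylates histamine, had a change of -0.09 and, like MAOA, lay below the median level. ALDH2, an aldehyde dehydrogenase of the mitochondrion, had a change of 0.02. The limma adjusted p of MAOA, HNMT and ALDH2 lay between 0.770 and 0.952. SLC6A2 and SLC18A2 were not analysed here.

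The nearest relatives of ADRA2A and HRH3 were dim or close to 0 in change. ADRA2C, the other alpha-2 receptor gene above the median level, had values of 7.40 and 7.34 with control siRNA and of 7.29 and 7.59 with SSRP1 siRNA, which overlapped. Its change was 0.07 ± 0.13 (SE, limma adjusted p = 0.882). ADRA2B, the third gene of that subfamily, had a change of -0.25 ± 0.11 (SE, limma adjusted p = 0.443) at a control level of 3.45. The histamine receptor genes HRH1, HRH2 and HRH4 had changes of 0.03, 0.21 and 0.19, with limma adjusted p between 0.506 and 0.948 and 0 at an unadjusted p under 0.05, and all 3 lay below the median level. Among the relatives of the enzymes, PAM, a copper enzyme that amidates peptides and is related to DBH, had a change of 0.22 ± 0.12 (SE, limma adjusted p = 0.512). HDC, a pyridoxal enzyme related to DDC, is given above.

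Among the 12 measured adrenergic and dopamine receptor genes of 13, none passed and 1 had an unadjusted p under 0.05 in limma. It was ADRB1, a receptor coupled to Gs, with values of 5.08 and 5.04 against 4.75 and 4.81 and a change of -0.28 ± 0.10 (SE, limma adjusted p = 0.354). DRD2, a dopamine autoreceptor coupled to Gi/o, had values of 7.18 and 6.85 against 7.23 and 6.81, which overlapped, and a change of 0.01 ± 0.19 (SE). ADRA1A, coupled to Gq, had a change of -0.16 at a level below the median.

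Other presynaptic receptors coupled to Gi/o held the 1 related gene that passed. NPY2R, the autoreceptor for neuropeptide Y on sympathetic terminals, had values of 7.55 and 7.52 with control siRNA and of 9.11 and 9.10 with SSRP1 siRNA. It rose by 1.57 ± 0.10 (SE) on the log2 scale (limma adjusted p = 0.0267). It was the 1 of 9 measured genes of 22 in that list to pass, and its limma adjusted p was 0.0954 in the fit to all probe sets and 0.241 to 0.599 with 1 array dropped, at changes of 1.56 to 1.59. SSTR2, a somatostatin receptor, and ADORA1, an adenosine receptor, had changes of 0.57 ± 0.14 (SE) and 0.56 ± 0.15 (SE), and both lay higher on both SSRP1 siRNA arrays without passing (limma adjusted p = 0.245 and 0.254). The nociceptin receptor gene OPRL1 and the prostaglandin receptor gene PTGER3 had changes of -0.14 and -0.13. ADORA1 and PTGER3 lay below the median level. HRH3, at -1.14, was chosen with that value known, so it is not compared with the receptor genes named here.

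Of the genes downstream of these receptors 7 of 30 were measured, 0 passed the adjusted limma threshold and 1 was at an unadjusted p under 0.05. That gene, RGS10, which shortens Gi/o signals by speeding GTP hydrolysis, had values of 5.54 and 5.60 against 5.24 and 4.94, a change of -0.49 ± 0.13 (SE, limma adjusted p = 0.266). RGS4 and RGS5, of the same family, had changes of -0.28 and -0.003. The adenylyl cyclase genes ADCY1, ADCY5 and ADCY8 had changes of 0.27, -0.04 and 0.11, with ADCY5 and ADCY8 below the median level. In limma the adjusted p ran from 0.466 to 0.994 over these 5 genes.

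**Figure D3:**
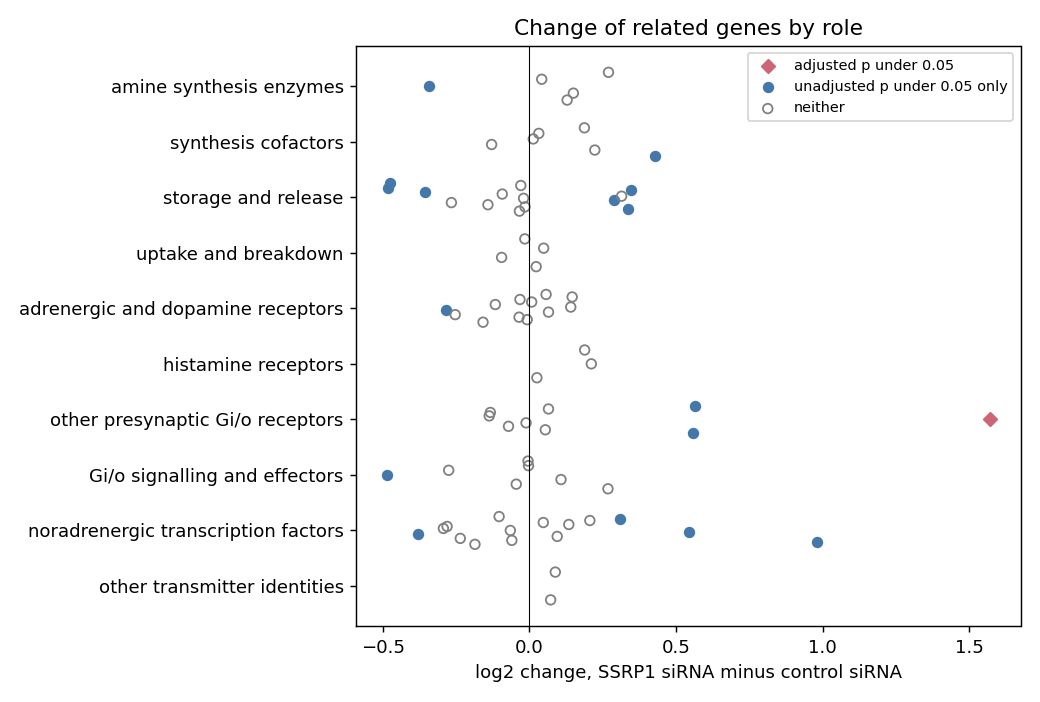
Log2 change (SSRP1 siRNA minus control siRNA) of the related genes, 1 point per gene, in rows by role. The red diamond is NPY2R at 1.57, the 1 gene past an adjusted p of 0.05, filled circles have an unadjusted p under 0.05 and open circles neither, and most points lie within 0.5 of 0.

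The transcription factors of noradrenergic identity were measured for 15 of 21 genes. In limma 0 passed, and 4 had an unadjusted p under 0.05, 3 higher and 1 lower. Those 4 were 26.7% of the list, against 12.6% of all genes and 15.8% of genes at or above the median level. HAND2, a bHLH factor needed for DBH expression in sympathetic neurons, had values of 9.15 and 9.22 with control siRNA and of 8.76 and 8.85 with SSRP1 siRNA, a change of -0.38 ± 0.10 (SE, limma adjusted p = 0.263). PHOX2A, a homeodomain factor that acts on the DBH promoter, had values of 8.14 and 7.98 against 7.70 and 7.87, a change of -0.28 ± 0.12 (SE, limma adjusted p = 0.411). GATA3, a zinc finger factor of the same lineage, had a change of -0.24 ± 0.11 (SE, limma adjusted p = 0.438). These 3 had lower values on both SSRP1 siRNA arrays, as had 22.5% of all genes. In the whole list the groups did not overlap for 5 genes higher and 5 lower of 15 (66.7%), with 7 changes above 0 and 8 below. They did not overlap for 44.3% of all genes and for 53.4% of genes at or above the median level, where 13 of the 15 lay.

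Other factors of the list lay higher. EGR1, an immediate early factor known to act on the TH promoter, had values of 7.15 and 7.20 against 8.27 and 8.04, a change of 0.98 ± 0.12 (SE, limma adjusted p = 0.0893). INSM1, a zinc finger factor of neuroendocrine cells, had a change of 0.54 ± 0.12 (SE) and TFAP2B, an AP-2 factor of the sympathetic lineage, of 0.31 ± 0.11 (SE), with limma adjusted p of 0.195 and 0.361. The repressor gene REST and the neuronal factor gene SOX11 were dim, with changes of 0.13 and 0.05. Among genes of other transmitter identities 2 of 9 were measured. CHAT, the acetylcholine enzyme, and VIP, a peptide of cholinergic sympathetic neurons, had changes of 0.07 and 0.09 with overlapping groups. CHAT lay below the median level.

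The genes whose pattern over the 4 arrays was most like each of the 4 were found by the distance between log2 values centred on each gene's mean. For ADRA2A the nearest 3 were FBN1, an extracellular matrix fibrillin, at a distance of 0.32, the endothelin receptor gene EDNRB at 0.52 and MGP, a matrix Gla protein, at 0.71. FBN1 had values of 4.06 and 3.50 against 5.80 and 5.65, with control replicate 2 the lowest as in ADRA2A. For DBH they were the homeobox gene DLX5 (0.05), the growth factor gene HGF (0.07) and LOXL1 (0.10), a lysyl oxidase. DLX5 had values of 6.72 and 6.55 against 5.93 and 5.89. For DDC they were ATF6B (0.03), C2CD2L (0.03) and LEFTY1 (0.04), and for HRH3 SOSTDC1 (0.18), CKAP4 (0.21) and PIM1 (0.22). By Pearson correlation over the same arrays the nearest 3 genes shared 0 with those for ADRA2A, DDC and HRH3, and 1, DLX5, for DBH.

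**Figure D4:**
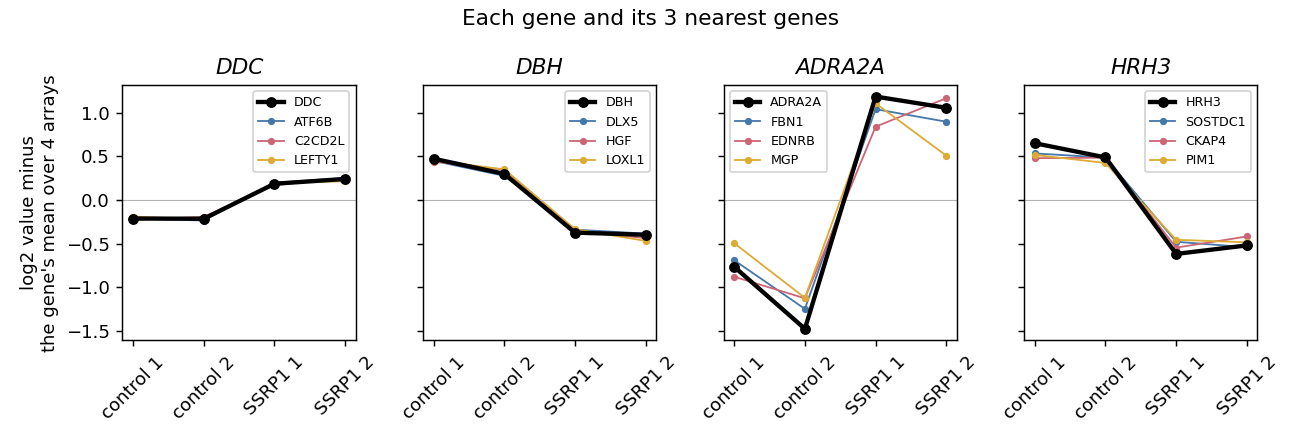
Log2 values of DDC, DBH, ADRA2A and HRH3 (black) and of the 3 nearest genes of each (coloured), minus each gene's mean over the 4 arrays, for the 4 arrays on the horizontal axis. The lines of DDC and DBH nearly coincide with those of their nearest genes, and those of ADRA2A are up to 0.71 in distance. Few genes had a change as large as that of ADRA2A, so the panels are not compared by distance.

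The differences of the 4 genes were recomputed under each alternative setting. Over the settings that kept all 4 arrays, DDC ran from 0.41 to 0.45, DBH from -0.78 to -0.75, ADRA2A from 2.24 to 2.27 and HRH3 from -1.16 to -1.12 on the log2 scale. Only quantile normalization and median centring could move these values. The other settings altered the variances or the features tested, and each gene had 1 probe set. When 1 array was left out in turn the ranges were 0.40 to 0.46 for DDC, -0.86 to -0.69 for DBH, 1.89 to 2.60 for ADRA2A and -1.22 to -1.06 for HRH3. ADRA2A moved most of the 4 when an array was left out. Their groups did not overlap, so leaving out 1 array could not change a sign, and nothing is read from the stable signs.

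**Figure D5:**
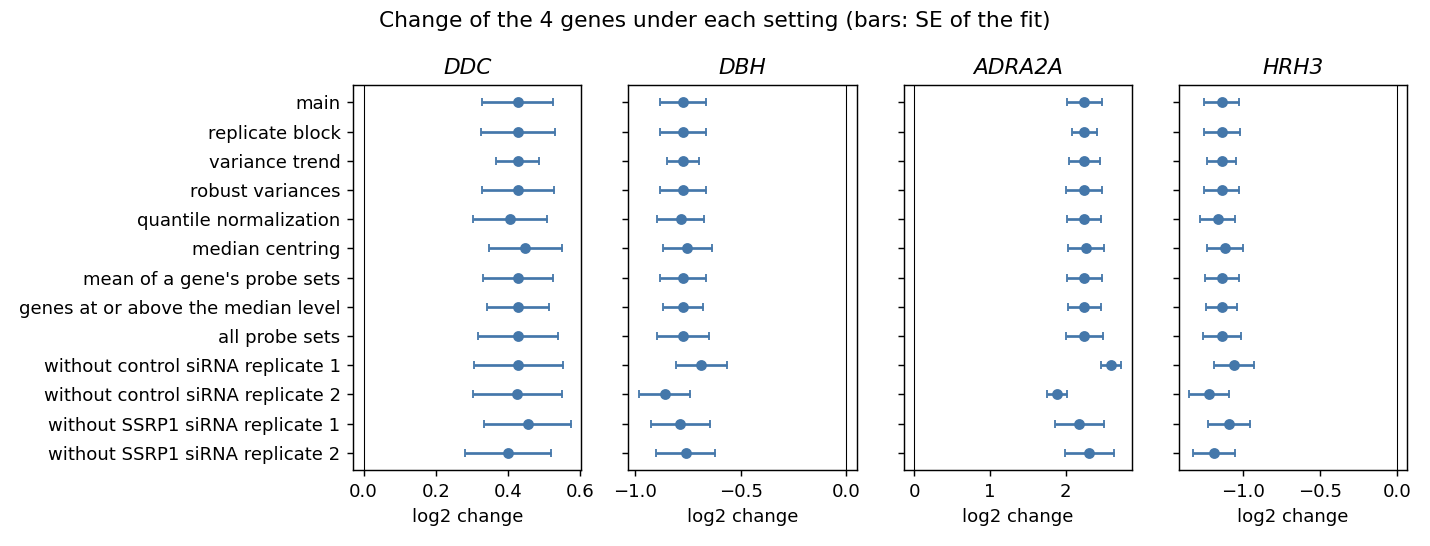
Log2 change (SSRP1 siRNA minus control siRNA) of DDC, DBH, ADRA2A and HRH3 under each setting, with points for the value and bars for the standard error of the fit; the horizontal scale differs between panels. ADRA2A lies at 2.60 without control replicate 1 and at 1.89 without control replicate 2.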

How the data were processed

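Gene expression was measured with 4 Affymetrix Human Gene 2.0 ST arrays, 2 per group, and samples were grouped by their titles. The deposited log2 values per probe set were made by the authors with RMA, per the submitters' processing notes; the sources used here give neither software nor version for it, and the log2 scale was read from the values (0.502 to 12.8). RMA makes the distributions of the arrays alike, so a shift of all transcripts would not be visible, and dim values are compressed. No background or detection values were used here. Of 46255 probe sets 15835 carried 1 symbol in the platform annotation, 0 several and 30420 none; all 15835 gene IDs were found in the RefSeq table (GRCh38.p14), and 0 symbols changed. The highest probe set by mean was used for each of 14812 genes. limma 3.58.1 in R 4.3.3 (lmFit, eBayes) gave changes, SE and p-values with Benjamini-Hochberg adjustment over all genes, on 2 residual and 3.79 prior degrees of freedom. The script was tested on simulated data. The members, the lists and the rule for named genes were chosen with earlier results of these data known. The rule names, of each list, all genes past the test and otherwise up to 4 genes above and 2 below the median level with the largest change, all members of the lists of amine enzymes, histamine receptors and relatives, and the genes that define the pathway. LUM, GFRA3 and the genes of the similar patterns are named besides. No set test was run. The alternatives tried were a replicate block, a variance trend, robust variances, quantile normalization, median centring, averaged probe sets, genes at or above the median level, all probe sets, a threshold of 0.1 and each array left out. No protein sequence was used.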

Additional observations from a re-analysis of the deposited data

How the results depend on the processing

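Over all genes, the 14 genes past the limma test became 6 with the replicate block (5 of the 14), 215 with a variance trend, 28 after quantile normalization, 23 after median centring, 179 among genes at or above the median level, 9 with robust variances, 41 at an adjusted p under 0.1 and 0 over all 46255 probe sets (smallest limma adjusted p 0.0783, with 3854 at an unadjusted p under 0.05). Without any 1 array the count was 0 to 0 (smallest limma adjusted p between 0.241 and 0.599, with 1200 to 1672 genes at an unadjusted p under 0.05), in fits with 1 residual degree of freedom in which the lone sample is assumed to vary like the other group. Of the related genes, the 1 that passed, NPY2R, became 4 with a variance trend (CYB561, EGR1 and HAND2 joined it) and 2 among genes at or above the median level or at an adjusted p under 0.1 (EGR1 joined it). It was 0 in the fit to every probe set, which tests more features (15 at an unadjusted p under 0.05, limma adjusted p of NPY2R 0.0954), and 0 to 0 without any 1 array (10 to 12 at an unadjusted p under 0.05, by limma). The nearest genes by correlation shared 0 of 3 with those by distance for ADRA2A, DDC and HRH3 and 1 of 3 for DBH. SSRP1 lost its call with the replicate block (limma adjusted p = 0.0569), with robust variances (0.0512), over all probe sets (0.144), in each at the same change of -1.95, and without any 1 array (0.241 to 0.599, at changes of -2.17 to -1.72). The replicate numbers come from the titles, which do not say whether same-numbered samples were paired. Deviations of same-numbered samples from their group means correlated at 0.114 over named genes. With 2 pairs only, this value cannot settle whether they were paired. In this balanced layout the block can alter the SE of a change but not the change. The equal values of DDC (0.43), DBH (-0.77), ADRA2A (2.25) and HRH3 (-1.14) therefore do not bear on pairing.

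Signs of several small changes were not stable. After quantile normalization DRD2 was at -0.0031, and after median centring RGS5 was at 0.018. Without 1 array in turn the ranges crossed 0 for ADCY5 (-0.187 to 0.097), HDC (-0.191 to 0.449), HRH1 (-0.039 to 0.090), MAOA (-0.088 to 0.186), RGS5 (-0.051 to 0.045), TPH1 (-0.147 to 0.232), CHAT (-0.204 to 0.349), DRD2 (-0.205 to 0.221), VIP (-5e-05 to 0.177), CADPS (-0.120 to 0.052), PTGER3 (-0.307 to 0.041), ADRA2C (-0.080 to 0.211), ALDH2 (-0.039 to 0.085) and SOX11 (-0.022 to 0.117). Other changes kept their sign but moved widely without 1 array: SCG5 (0.118 to 0.511), VGF (-0.723 to -0.231), GCH1 (0.075 to 0.372) and RGS4 (-0.429 to -0.121). The causes were not tested. With 2 arrays per group the number of arrays limits all of these values.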
